A study of Mus musculus with 16 samples.

Results

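Gzma, Gzmb, Prf1 and Nkg7 encode parts of the cytotoxic granule, and Ctsw encodes a protease found mainly in cytotoxic lymphocytes. Their transcripts were followed in mouse T-cell leukaemia lines. The 5 genes were taken by symbol from the 13474 genes of the deposited expression table, and all 5 had a row. They were picked with their levels in these libraries already known, so those levels, and every difference between libraries in them, are described here and not tested. All 5 passed the filter used for testing other genes (at least 1 FPKM, a read density scaled to gene length and to library depth, in at least 2 libraries), but Gzmb passed it through line 2696 alone.

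The cultures came from 5 lines of T-cell acute lymphoblastic leukaemia (T-ALL), all labelled as thymus. Lines 2883, 2696, 2641 and 2869 have the genotype Mcm2cre/cre, an allele with Cre placed in the gene of a replication helicase subunit and known to lower its expression, and line 7298 is SCL/LMO1 transgenic, carrying a pair of T-cell oncogenes. Each line was profiled as a parental culture labelled PBS (5 libraries), and 11 resistant derivatives stood beside them: 3 to cytarabine (lines 7298, 2883 and 2869), 3 to vincristine (2883, 2696 and 2869), 2 to etoposide (2883 and 2696), 2 to prednisone (2883 and 2641) and 1 to methotrexate (2883). Each culture is 1 library, so a derivative and its parental culture have no replicate, and the 5 derivatives of line 2883 share 1 parental library. The labels give all 16 libraries the same batch date, and they do not say whether a line is a single clone, how many cells or doses a derivative came through, or which promoter drives the transgene.

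Cytotoxic T cells and natural killer (NK) cells kill by releasing granules. Perforin, the product of Prf1, forms pores in the target membrane, and granzymes, serine proteases, enter and cleave their substrates: granzyme A (Gzma) cuts after basic residues and granzyme B (Gzmb) after aspartate, which lets it activate caspases. Nkg7 is a granule membrane protein needed for efficient granule release, and cathepsin W (Ctsw) is a cysteine protease found mainly in cytotoxic lymphocytes. T-ALL is a leukaemia of thymocytes, most of which do not carry this programme.

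Library depth, recovered from the values, lay between 12142000 and 13498000 reads for parental cultures and between 14066000 and 18956000 for resistant ones, 2 ranges that do not overlap. All 16 genes of the T-lineage marker list had a row, and their FPKM summed to between 399 and 720 in each library. Not all of these genes were present throughout. Cd4 reached 1 FPKM in 1 library, Cd5 in 3, Cd7 in 7 and Cd2 in 11, Cd247 and Cd8a in 15, and the others in all 16. Of the markers of other cells, 3 of 10 for NK and innate lymphoid cells had a row (Eomes, Gata3 and Rora), 2 of 10 for mast cells (Cpa3 and Kit), 2 of 10 for myeloid cells (Itgam and Spi1), 1 of 7 for B cells (Cd79b), 2 of 8 for stroma (Pdgfrb and Pecam1) and 0 of 7 for erythroid cells. Lmo1 matched the genotype labels, with 7.37 and 6.07 FPKM in the parental and resistant libraries of line 7298 and 0.000225 FPKM or lower in the other 14. The SCL gene was not looked at here. Mcm2 was at 20.9 and 29.2 FPKM in line 7298 and at 3.53 to 12.2 FPKM in the Mcm2cre/cre lines, which also differ from line 7298 in origin and transgene, so the effect of the allele cannot be told apart from these.

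The promoters are shown because the genes differed so widely in level between libraries of the same lineage. The sequences are from RefSeq (GRCm38.p6), and each window ends at the base before whichever of the RefSeq and GENCODE starts lies farther upstream, with at most 250 bases. For Gzmb that is the RefSeq start, 74 bases upstream of the GENCODE start, for Nkg7 the GENCODE start, 65 bases upstream of the RefSeq start, and for Prf1 the GENCODE start, 3 bases upstream. Distances below are counted from the end of the window, so they do not refer to the same kind of start in every gene. Capitals mark matches, on either strand, to the core of the RUNX site (TGTGGT, which reads ACCACA on the other strand), the AP-1 site (TGANTCA) or the half-site of the cAMP response element (TGACG); a T-box half-site (GGTGTG) was also searched.
Gzma: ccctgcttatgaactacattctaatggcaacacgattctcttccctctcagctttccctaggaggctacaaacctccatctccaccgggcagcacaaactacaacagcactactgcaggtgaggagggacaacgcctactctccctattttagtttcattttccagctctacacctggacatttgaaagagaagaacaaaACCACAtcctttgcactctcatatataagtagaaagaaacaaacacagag
Gzmb: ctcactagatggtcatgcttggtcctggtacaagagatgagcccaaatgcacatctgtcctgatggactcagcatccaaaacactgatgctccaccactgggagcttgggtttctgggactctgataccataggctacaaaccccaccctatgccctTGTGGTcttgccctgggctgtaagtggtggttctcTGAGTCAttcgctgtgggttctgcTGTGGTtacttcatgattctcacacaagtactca
Prf1: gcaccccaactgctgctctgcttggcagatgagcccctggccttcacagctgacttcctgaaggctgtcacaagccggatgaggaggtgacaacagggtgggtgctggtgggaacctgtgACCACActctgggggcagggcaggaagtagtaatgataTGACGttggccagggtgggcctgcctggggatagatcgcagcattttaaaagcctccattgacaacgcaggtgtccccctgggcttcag
Nkg7: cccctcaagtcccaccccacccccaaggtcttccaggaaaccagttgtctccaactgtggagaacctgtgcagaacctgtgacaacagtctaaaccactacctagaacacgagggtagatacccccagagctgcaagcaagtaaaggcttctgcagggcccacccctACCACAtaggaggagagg
The windows are chr13:113100982-113101231 (minus strand, Gzma), chr14:56262335-56262584 (minus strand, Gzmb), chr10:61297586-61297832 (plus strand, Prf1) and chr7:43436888-43437072 (plus strand, Nkg7), and Ctsw was not matched. The Gzmb window held 2 RUNX matches, 93 to 88 and 34 to 29 bases before the start, with an AP-1 match between them, 58 to 52 bases before it. The other windows held 1 RUNX match each, at 50 to 45 bases in Gzma, 127 to 122 in Prf1 and 18 to 13 in Nkg7, and Prf1 also held a cAMP half-site. Of 32841 promoter windows of 250 bases, 14.0% held at least 1 RUNX match, 1.27% held at least 2, 6.75% an AP-1 match, 17.8% a cAMP half-site and 16.3% a T-box half-site. For windows of the length used for Nkg7, 185 bases, the share with a RUNX match was 10.7%, and for the 247 bases of Prf1 it was 13.9%. No window of these 4 held the T-box half-site. A match gives letters only; no binding was measured.

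Gzma was the most abundant of the 5 and was read in every library, whereas Gzmb was confined to line 2696 apart from 4 reads elsewhere. To compare genes, CPM values (reads scaled to library depth) were divided by exon length in kilobases, since the deposited FPKM divides by the whole gene with introns. On that scale Gzma had a median level of 268 and a range of 3.47 to 1554 over the 16 libraries. The highest level of Gzmb was 49.5, of Nkg7 46.0, of Ctsw 13.4 and of Prf1 8.43. In line 2696, where all 5 were present, Gzma stood at 417 to 773 and each of the others below 50 in every library. In bulk RNA, fewer cells that carry a transcript and less of it in each cell cannot be told apart, and this holds for every level below.

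**Figure D1:**
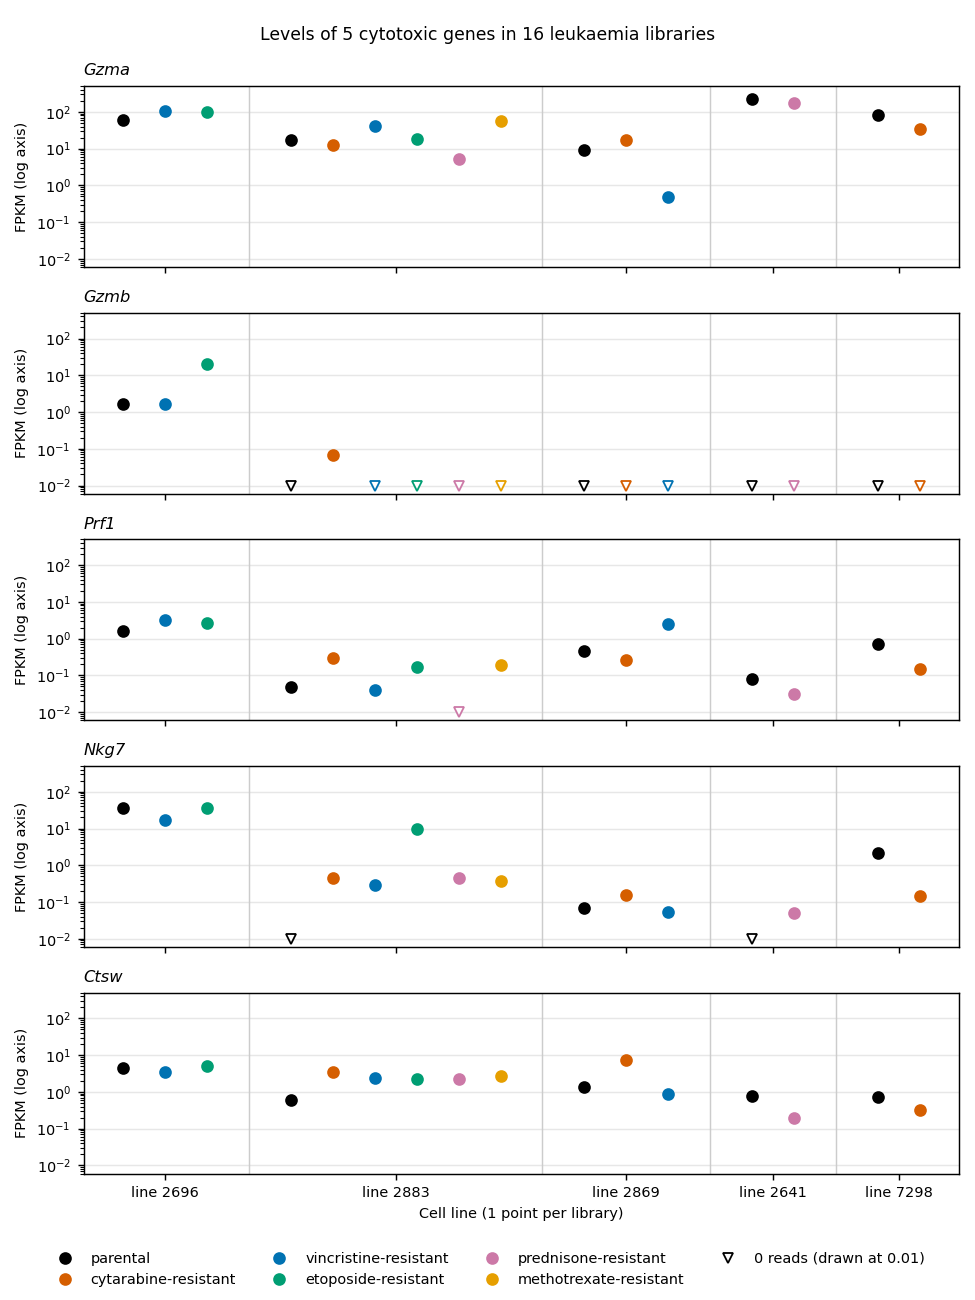
Level of each gene (FPKM, log axis) in the 16 libraries, 1 point per library, grouped by line and coloured by state (parental or resistant to the named drug); open triangles are libraries with 0 reads, drawn at 0.01. Gzma lies between 0.488 and 218 FPKM, while Gzmb is above 1 FPKM only in the 3 libraries of line 2696.

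Gzmb (chr14, 56258838 to 56262260, minus strand, mm10) was read in line 2696 at 73 reads in the parental library, 91 in the vincristine-resistant and 1221 in the etoposide-resistant one. These counts are 1.63, 1.61 and 20.8 FPKM. The cytarabine derivative of line 2883 had 4 reads (0.0697 FPKM), and the other 12 libraries had 0 reads, which allows levels of up to 0.0462 to 0.0722 FPKM at their depths (3 reads). The 3 libraries of line 2696 therefore lay above the other 13 without overlap. Parental line 2696 was 22.5-fold to 25.0-fold above the other 4 parental libraries, taking 3 reads for each 0. The exact intervals had lower limits of 17.8 to 19.8.

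Within line 2696 the high Gzmb value belonged to the etoposide derivative. Its ratio to the parental library was 12.8 (95% exact binomial interval 10.1 to 16.4). The vincristine derivative had a ratio of 0.987 (0.717 to 1.36), and the etoposide derivative was 13.0-fold (10.5 to 16.2) above it. Such intervals cover the counting error of a pair of libraries only, not the spread between cultures, and reads without molecular identifiers are not independent molecules. Gzmb ranked 12 from the top by this ratio among the 8334 genes that reached 1 FPKM on either side of the pair, of which 2.5% were at least 2-fold higher; it was the only 1 of the 5 members past that fold there, and nothing is read from that count because the members were chosen on these contrasts. The etoposide derivative of line 2883 had 0 Gzmb reads, so the high value stood in 1 of 2 etoposide derivatives.

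Gzma (chr13, 113093825 to 113100981, minus strand) had its own order of lines. The parental libraries gave 218 FPKM in line 2641, 84.5 in 7298, 58.6 in 2696, 16.8 in 2883 and 8.97 in 2869. Each neighbour in that order differed by more than counting error, the nearest pair being 2696 and 7298 with a ratio of 0.694 (0.670 to 0.719). Line 2641, highest in Gzma, had 0 reads of Gzmb in both libraries. Gzma thus did not follow Gzmb across lines.

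Derivatives lay on both sides of their parental libraries, and the lines overlapped. In line 2696 the vincristine derivative stood at 109 FPKM and the etoposide derivative at 99.2 FPKM, both above the 58.6 of the parental library. In line 2883, with 16.8 FPKM in the parental library, Gzma was at 12.6 with cytarabine resistance, 40.4 with vincristine, 17.9 with etoposide, 5.08 with prednisone and 56.1 with methotrexate. The methotrexate derivative had the highest ratio of all 11, 3.35 (3.16 to 3.55), and the prednisone derivative of the same line had 0.303 (0.275 to 0.333), in a pair where 3.62% of 8233 genes were at least 2-fold lower.

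The lowest Gzma library was the vincristine derivative of line 2869. It had 60 reads (0.488 FPKM) against 866 (8.97 FPKM) in its parental library, a ratio of 0.0544 (0.0411 to 0.0707), while the cytarabine derivative of that line stood at 16.7 FPKM. This is the only 1 of the 16 libraries with Gzma below 1 FPKM. In line 2641 the prednisone derivative had 175 FPKM, a ratio of 0.799 (0.784 to 0.814), and in line 7298 the cytarabine derivative had 35.0 FPKM, a ratio of 0.415 (0.399 to 0.430). Over the 11 derivatives, Gzma was higher in 5, lower in 5 and within counting error in 1.

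Prf1 (chr10, 61297833 to 61304680, plus strand) was low in all lines and highest in line 2696. That line gave 1.66 FPKM in the parental, 3.18 in the vincristine and 2.65 in the etoposide library. Parental levels in the other lines were 0.731 FPKM in 7298, 0.455 in 2869, 0.0780 in 2641 and 0.0493 in 2883. Lines 2641 and 2883, with 7 and 4 reads, could not be ranked, their ratio of 0.626 having an interval from 0.134 to 2.46. The groups overlapped, because the vincristine derivative of line 2869 reached 2.46 FPKM, above the parental library of line 2696.

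That derivative had 290 Prf1 reads against 42 in its parental library, a ratio of 5.42 (3.91 to 7.68). It is the same library in which Gzma was at its lowest, so the pore gene was higher and the granzyme gene lower in 1 culture. Among 7853 genes compared there, 5.79% were at least 2-fold higher and 4.51% at least 2-fold lower; 1 of the 3 members at 1 FPKM or more was past that fold in each direction, and nothing is read from it. Among the same genes Prf1 ranked 115 from the top of the ratios and Gzma 46 from the bottom. Ctsw was at 0.874 FPKM in this library against 1.39 in the parental one.

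In line 2883 Prf1 rested on few reads. The parental library had 4, and the derivatives had 35 (cytarabine), 4 (vincristine), 16 (etoposide), 0 (prednisone) and 18 (methotrexate). The ratio of the cytarabine derivative was 6.18, with an interval from 2.21 to 23.9. In line 7298 the cytarabine derivative had 18 reads against 63, a ratio of 0.204 (0.114 to 0.349), and in line 2869 it had 30 against 42, a ratio of 0.569 (0.344 to 0.931). The cytarabine derivatives were therefore on both sides of their parental libraries. In line 2641 there were 7 reads in the parental and 4 in the prednisone library.

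**Figure D2:**
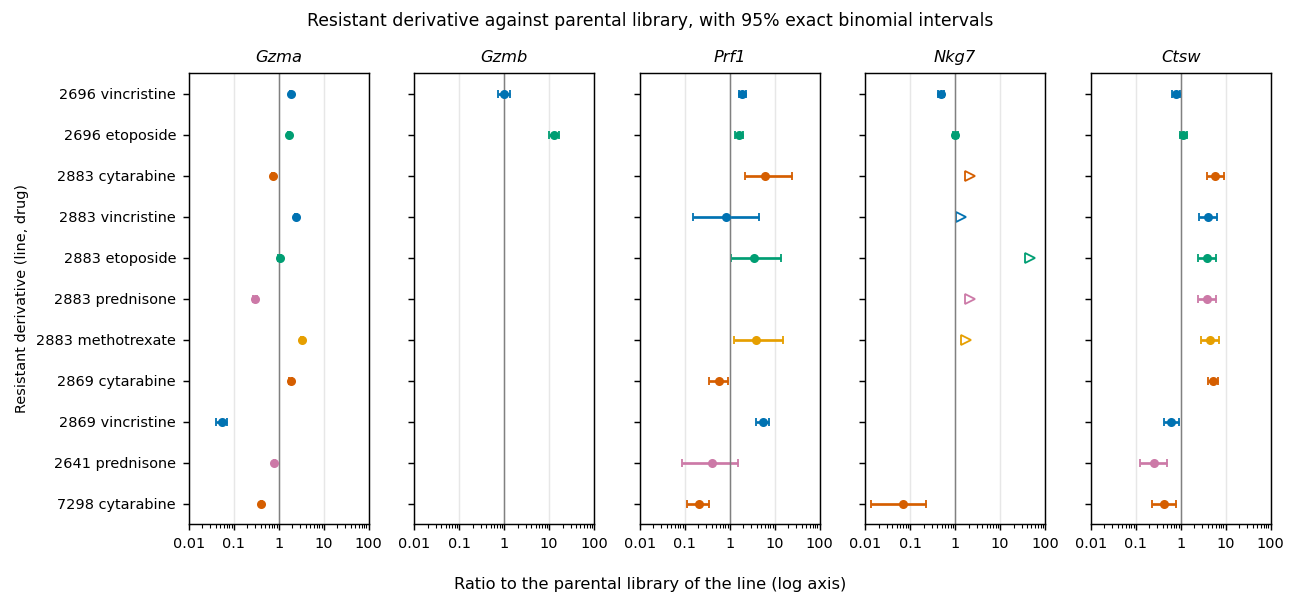
Ratio of each resistant derivative to the parental library of its line (log axis) for the 5 genes, with 95% exact binomial intervals on the reads as bars. Open arrowheads are folds against 3 reads where the parental library had 0, without the counting error of the derivative. Pairs with 3 reads or fewer in both libraries, or 4 or fewer against 0, are left blank. Ratios lie on both sides of 1 for Gzma (0.0544 to 3.35), Prf1 and Ctsw (0.253 to 5.82), and the high Gzmb value is the etoposide derivative of line 2696 at 12.8.

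Nkg7 (chr7, 43437073 to 43438249, plus strand) shared with Gzmb its high level in line 2696. There it had 544 reads in the parental, 332 in the vincristine and 722 in the etoposide library, or 35.2, 17.0 and 35.7 FPKM. The ratio to parental was 0.483 (0.420 to 0.555) for vincristine and 1.01 (0.906 to 1.14) for etoposide. So the library in which Gzmb was 12.8-fold higher had Nkg7 at its parental level within counting error. Of the 8381 genes compared for the vincristine derivative, 7.47% were at least 2-fold lower, and of the 5 members only Nkg7 was. Nothing is read from that count.

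Outside line 2696, Nkg7 was above 1 FPKM in 2 libraries. The etoposide derivative of line 2883 had 167 reads (9.96 FPKM) where its parental library had 0. That is 47.4-fold higher with 3 reads taken for the 0, and the exact interval had a lower limit of 38.1. The other derivatives of that line had 5 to 9 reads. Among the 8487 genes compared in this etoposide pair, 8.95% were at least 2-fold higher, and 2 of the 3 members at 1 FPKM or more were, Nkg7 and Ctsw; nothing is read from that count. Parental line 7298 had 31 Nkg7 reads (2.09 FPKM) and its cytarabine derivative 3 (0.149 FPKM), a ratio of 0.0691 (0.0135 to 0.221). In that pair 3.58% of 7904 genes were at least 2-fold lower, as were both members at 1 FPKM or more, Gzma and Nkg7. Nkg7 reached 1 FPKM there in the parental library alone, and nothing is read from that count. Lines 2869 and 2641 had 0 to 3 Nkg7 reads in every library.

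The 2 etoposide derivatives therefore each had 1 granule gene far above its parental library, and not the same gene. In line 2696 it was Gzmb, with Nkg7 at a ratio of 1.01. In line 2883 it was Nkg7, with Gzmb at 0 reads. Whether the lines differ in this was not tested, with 1 library for each. Etfb, the nearest row to Nkg7 at 5.833 kb, was at 6.15 FPKM in the etoposide derivative of line 2883, 6.14 in its vincristine derivative and 3.49 in its parental library. Cenpj and Gm5801, the nearest rows to Gzmb, ranged over the 16 libraries from 0.579 to 1.03 and from 19.0 to 28.8 FPKM only, with 0.845 and 22.5 FPKM in the etoposide derivative of line 2696.

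**Figure D3:**
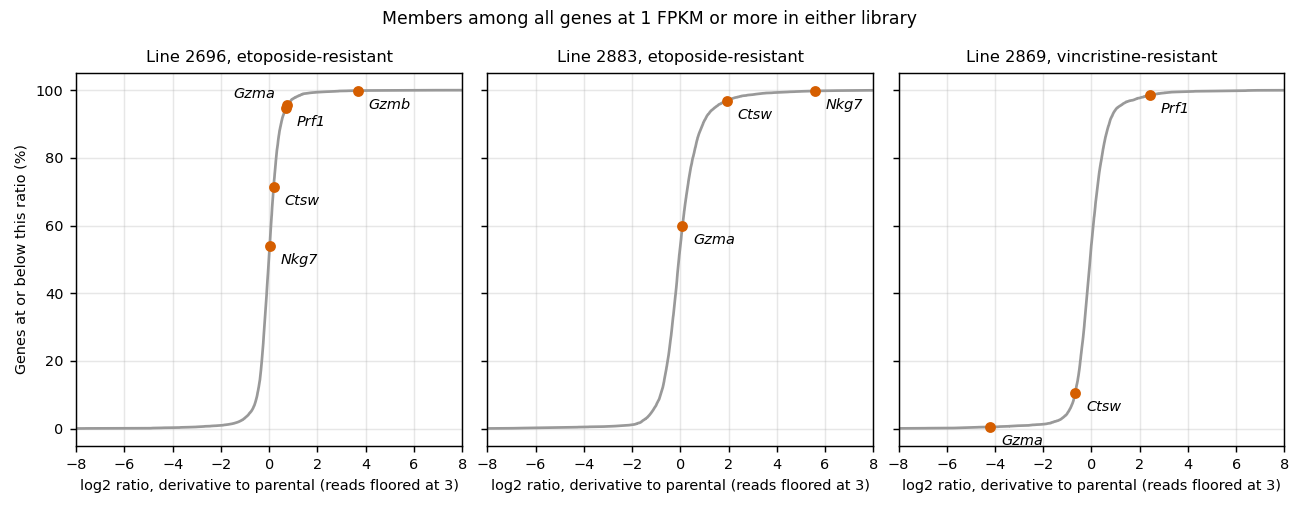
Cumulative share of genes (%) against the log2 ratio of derivative to parental library, for genes reaching 1 FPKM on either side of the pair, with libraries of fewer than 3 reads set to 3; points mark the members. Gzmb lies at the upper end in the etoposide derivative of line 2696 and Nkg7 in that of line 2883, and Prf1 and Gzma lie at opposite ends in the vincristine derivative of line 2869.

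Ctsw (chr19, 5465043 to 5468507, minus strand) was read in all 16 libraries, from 0.199 to 7.27 FPKM. Parental line 2696 was highest with 4.58 FPKM, followed by 2869 with 1.39, and then by 2641 with 0.784, 7298 with 0.734 and 2883 with 0.597. The last 3 could not be ranked, the ratio of 2883 to 2641 being 0.760 (0.437 to 1.30). The derivatives of line 2696 had 3.57 (vincristine) and 5.19 FPKM (etoposide). The highest library of all was the cytarabine derivative of line 2869, so line 2696 did not stand apart in this gene.

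All 5 derivatives of line 2883 had more Ctsw than their parental library. The levels were 3.46 FPKM with cytarabine resistance, 2.37 with vincristine, 2.27 with etoposide, 2.27 with prednisone and 2.63 with methotrexate, against 0.597 FPKM. The ratios ran from 3.81 to 5.82, and the lowest bound of any interval was 2.46. These 5 ratios share the 25 reads of 1 parental library, so they are not 5 separate observations of a change. At least 2-fold higher in these pairs were 7.36% of all genes for cytarabine, 5.68% for vincristine, 8.95% for etoposide, 4.48% for prednisone and 3.83% for methotrexate.

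In the other lines Ctsw took both directions. The cytarabine derivative of line 2869 had 427 reads against 65, a ratio of 5.23 (4.02 to 6.90), in a pair where 5.5% of genes were at least 2-fold higher. The cytarabine derivative of line 7298 had 0.312 FPKM, a ratio of 0.424 (0.227 to 0.771), and the prednisone derivative of line 2641 had 0.199 FPKM, a ratio of 0.253 (0.123 to 0.489). The last bases of Ctsw overlap the end of Fibp on the opposite strand, and the strand setting of the counting is not given in the sources used here, so a few reads could belong to either. Fibp stood at 3.89 to 7.42 FPKM in the 16 libraries, and its part in the Ctsw values was not tested.

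Correlations between the 5 genes ranged widely. Over the 16 libraries, Pearson r of log2(FPKM + 1) was 0.77 between Gzmb and Nkg7, 0.68 between Prf1 and Nkg7 and 0.67 between Gzmb and Prf1. These values share the 3 libraries of line 2696. Over the other 13 libraries r between Prf1 and Nkg7 was -0.02; for Gzmb, with 0 reads in 12 of those 13, no r can be read there. Gzma had r of 0.32 with Gzmb, 0.33 with Nkg7, 0.00 with Prf1 and -0.03 with Ctsw. Over the 13 libraries without line 2696 its r was 0.01 with Nkg7, -0.57 with Prf1 and -0.29 with Ctsw. Line 2696 had the highest parental level in 4 of the 5 genes, all but Gzma, and in 20.0% of the 9309 genes that passed the filter. Its 3 libraries lay above all the other 13 in 2 of the 5, Gzmb and Nkg7, against 3.18% of those 9309. Both counts were chosen after the values were seen, and nothing is read from them.

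The genes whose pattern was most like that of a member over the 16 libraries were, for Gzmb, Car9 (r = 0.94), Fam167a, Gpr146, Snrk and Drosha. All 5 were highest in the etoposide derivative of line 2696, Car9 with 18.8 FPKM there and at most 0.482 FPKM outside that line. With Gzmb at 0 reads in 12 of the 13 libraries outside line 2696, these likenesses rest on that line. For Nkg7 they included Bcl2l14 (0.94), Wipf1, Tmem221 and S100a4. For Prf1 they were Map7 (0.95), F2r, Lpcat1, Rgs19 and Gmppb, for Gzma Nrde2 (0.90), Oxld1, Cox7a2l, Cptp and Rpl24, and for Ctsw Vmac (0.88), Dnase2a, Map4k2, Unc45a and Hspb6. Map7 kept r = 0.85 without line 2696 and Nrde2 0.88, whereas Bcl2l14 had 0.72.

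The rest of the cytotoxic programme was read through 6 lists of 117 genes, of which 85 had a row and 68 passed the filter. With limma (terms for line and drug, Benjamini-Hochberg adjustment over all genes), 0 of the 68 were called for cytarabine, vincristine, etoposide, prednisone or resistance to any drug. At an unadjusted p under 0.05 there were 8, 15, 4, 11 and 7 of them. Over all 9309 genes, 0% were called for cytarabine, vincristine, etoposide and any resistance, with 1037, 1289, 827 and 907 at an unadjusted p under 0.05, and 0.0215% (2 genes) for prednisone, with 853. The median log2 difference of the 68 genes was 0.11 for cytarabine, -0.05 for vincristine, -0.05 for etoposide and -0.12 for prednisone, beside 0.02, -0.02, -0.03 and 0.00 over all genes.

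More genes were called between lines than for any drug. The limma F test over the line terms called 21 of the 68 list genes, 30.9%, beside 20.5% of all genes tested (1905 of 9309). Libraries of a line share their origin, so this measures how far they resemble each other. Both counts fell when some single libraries were left out. Without the etoposide derivative of line 2696, 13 list genes and 1333 of all genes were called. Without that of line 2883 it was 13 and 1343, so the fall was not particular to the list genes. The shares by list are given below beside the 20.5% of all genes, and nothing particular to a list is read from them.

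Of the genes of granule content and death ligands, 7 of 18 had a row, and none of Gzmc, Gzmd, Gzme, Gzmf, Gzmg, Gzmk, Gzmm, Gzmn, Fasl or Ifng did. Among the 6 tested, 2 differed between lines (33.3%, beside 20.5% of all genes). Srgn, the proteoglycan that packs granzymes, stood at 3.99 to 6.17 FPKM in line 2696 and at 0.279 to 4.30 FPKM elsewhere (limma F test, adjusted p = 0.047). Tnfsf10, the death ligand TRAIL, reached 4.42 FPKM in the vincristine derivative of line 2696 (adjusted p = 0.028). Ltb (lymphotoxin beta) and Tnf did not pass the test, with ranges of 0.304 to 5.75 and 0.301 to 2.81 FPKM.

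Of the genes that activate or inhibit granzymes, 1 of 10 tested differed between lines (10%, beside 20.5% of all genes). Serpinb6b, of the serpin family of protease inhibitors, was at 1.84 to 4.73 FPKM in line 2696 and from 0.000535 to 3.56 FPKM elsewhere (adjusted p = 0.0056). In the vincristine derivative of line 2869 it had 414 reads where the parental library had 0, 108-fold more with 3 reads taken for the 0. Ctsc, which activates granzymes by removing a dipeptide, was at 0.699 to 2.20 FPKM, and Cst7, an inhibitor of that activation, at 0.0396 to 2.80 FPKM. Ctsz and Ctsl, lysosomal cathepsins, ranged up to 8.43 and 4.78 FPKM without passing the test.

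Of the genes of granule maturation and exocytosis, 4 of 16 tested differed between lines (25%, beside 20.5% of all genes): Vamp8, Sh2d1a, Stxbp2 and Wipf1. Vamp8, a membrane fusion protein, was at 1.16 to 6.43 FPKM in 13 libraries, whereas the 3 of line 2869 had 0.00106 to 0.0149 FPKM (adjusted p = 0.0063). The vincristine derivative of line 2869, with the highest Prf1 outside line 2696, was thus among the libraries with almost no Vamp8. Wipf1, a partner of the actin regulator WASP, was at 2.25 to 5.72 FPKM in line 2696 and 0.768 to 2.25 FPKM elsewhere. Unc13d, which primes granules for fusion, and Coro1a, an actin-binding protein, did not pass the test, at 0.610 to 7.04 and 16.9 to 89.2 FPKM.

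Of the transcription factors, 7 of 21 tested differed between lines (33.3%, beside 20.5% of all genes): Ikzf1, Bcl11b, Runx3, Ikzf2, Ets1, Irf4 and Stat5b. Runx3, a RUNX factor of CD8 T cells and NK cells, was at 1.17, 0.616 and 1.16 FPKM in the parental, vincristine and etoposide libraries of line 2696 (adjusted p = 0.014). Like Gzmb, Runx3 passed the filter through line 2696 alone, which favours a call between lines in advance, so nothing is read from that p-value. Elsewhere the highest Runx3 value was 0.306 FPKM, in the vincristine derivative of line 2869, and the other 12 libraries had at most 0.0686 FPKM. Ikzf1 (Ikaros) was at 2.87 to 16.9 FPKM (adjusted p = 0.0011) and Bcl11b, a T-lineage factor, at 1.53 to 9.35 FPKM (adjusted p = 0.0090). The list genes with all 3 libraries of line 2696 above the other 13 were 4 of 68 (5.88%, beside 3.18% of all genes tested), namely Runx3, Stat5b, Coro1a and Was. They were picked out after their values were seen, and nothing is read from the count.

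The factors with the widest range did not pass the test of lines. Id2 and Id3, inhibitors of E proteins, were at 46.5 and 23.6 FPKM in parental line 2696 and at 11.2 and 5.24 FPKM in its vincristine derivative. That derivative is the 1 with the lower Nkg7. In the vincristine derivative of line 2869, Id3 was at 0.363 against 11.2 FPKM and Tcf7, a factor of immature T cells, at 7.93 against 33.3 FPKM. Low Id3 was not particular to these vincristine derivatives, and the cytarabine derivative of line 2869 had 0.734 FPKM. Only the cytarabine and methotrexate derivatives of line 2883 were above their parental library in Id3, at 11.4 and 11.1 against 6.49 FPKM. All other derivatives were below theirs. Bhlhe40 ranged from 1.42 to 18.2 FPKM.

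Of the cytokine receptors, 2 of 9 tested differed between lines (22.2%, beside 20.5% of all genes), both of the interleukin-12 receptor. Il12rb2 was at 2.43 to 3.83 FPKM in line 2696 (adjusted p = 0.0028) and Il12rb1 at 3.71 to 4.58 FPKM (adjusted p = 0.019), with up to 2.82 and 3.86 FPKM elsewhere. Il2ra, the alpha chain of the interleukin-2 receptor, was at 47.3 and 42.3 FPKM in the cytarabine and vincristine derivatives of line 2883, and no other library exceeded 3.79 FPKM. Gzmb had 4 and 0 reads in those 2 libraries. Il2rb and Il7r ranged from 0.128 to 5.99 and from 0.0217 to 4.39 FPKM.

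Of the receptors of cytotoxic lymphocytes, 8 of 22 had a row. Of the 6 tested, 5 differed between lines (83.3%, beside 20.5% of all genes): Cd8a, Cd8b1, Hcst, Itgb2 and Cd160. Cd8a, a chain of the coreceptor CD8, was at 1.32 to 4.16 FPKM in line 2696 and reached 135 FPKM in the cytarabine derivative of line 2869 (adjusted p = 0.0011). The line with Gzmb and Nkg7 was thus among the low ones for Cd8a. Cd8b1 reached 20.7 FPKM in the same library as Cd8a (adjusted p = 0.010). Hcst, an adaptor of NK receptors, was at 1.36 to 2.03 FPKM in line 2696, up to 2.81 FPKM in line 2869 and 1.63 and 1.85 FPKM in line 7298 (adjusted p = 0.010). Klrd1, Klrk1, Klrg1, Tyrobp, Xcl1 and Ccl5 had no row.

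Among markers of other cells, the NK and innate sum and the myeloid sum were higher in line 2696 than in all other libraries. The mast cell, stroma and B-cell sums overlapped between line 2696 and the other lines. The part of such cells in the granule gene levels of line 2696 was not tested. Over the NK and innate list the 3 genes with a row summed to 10.8 to 12.7 FPKM in line 2696 and 1.41 to 8.26 FPKM in the other lines, nearly all of it Gata3, which thymocytes also express. Eomes was at most 0.000962 FPKM in line 2696 and highest in parental line 2641, at 0.998 FPKM. Ncr1 and Klrb1c, defining NK genes, had no row. The myeloid list summed to 0.910 to 1.18 FPKM in line 2696 and 0.0492 to 0.406 FPKM elsewhere, with Spi1 at 0.583 to 0.732 against at most 0.0380 FPKM. Itgam, the other myeloid gene with a row, overlapped, at 0.180 to 0.593 FPKM in line 2696 and 0.0490 to 0.406 FPKM elsewhere. The mast cell list summed to 1.34 to 6.58 FPKM in line 2696 and 0.000290 to 5.61 FPKM elsewhere. The stroma list summed to 9.04 to 11.6 FPKM there and 0.339 to 11.5 FPKM elsewhere, and the B-cell list to 0.301 to 0.955 and 0.00154 to 3.86 FPKM.

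**Figure D4:**
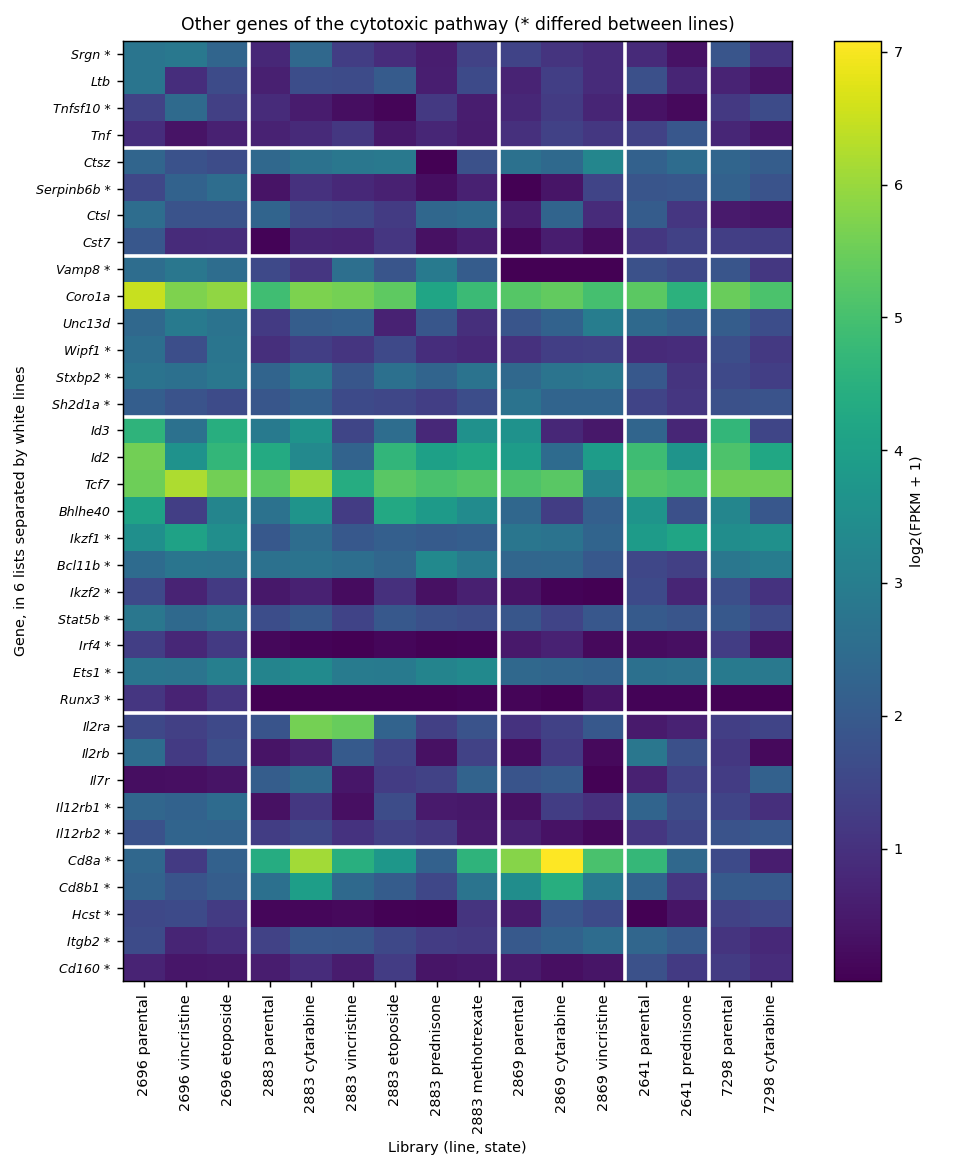
Level of 35 pathway genes, as log2(FPKM + 1) by colour, in the 16 libraries (columns, by line), in 6 lists separated by white lines in the order of the text; an asterisk marks genes called between lines. Runx3 is above 0.5 FPKM only in line 2696, Vamp8 is near 0 in line 2869, and Cd8a is highest in the cytarabine derivative of line 2869.

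By derivative, the list genes at least 2-fold from their parental library were more often higher in some pairs and more often lower in others. In the vincristine derivative of line 2883 as many were higher as lower. In the etoposide derivative of line 2696, 2 of the 62 list genes that reached 1 FPKM in the pair were higher (3.23%, beside 2.5% of all genes) and 6 were lower (9.68%, beside 3.17%). The 2 that were higher were Notch1 and Serpinb6b. In the vincristine derivative of that line 5 of 61 were higher (8.2%, beside 3.96%) and 13 lower (21.3%, beside 7.47% of all genes).

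In line 2883 the cytarabine derivative had 15 of 57 list genes at least 2-fold higher (26.3%, beside 7.36%) and 3 lower (5.26%, beside 4.78%). For etoposide it was 11 of 57 higher (19.3%, beside 8.95%) and 4 lower (7.02%, beside 6.99%). For vincristine 8 of 54 were higher and 8 lower (14.8% each, beside 5.68% and 5.67%). For prednisone 3 of 48 were higher (6.25%, beside 4.48%) and 7 lower (14.6%, beside 3.62%). For methotrexate 4 of 51 were higher (7.84%, beside 3.83%) and 5 lower (9.8%, beside 4.36%). The cytarabine derivative of line 2869 had 11 of 55 higher (20.0%, beside 5.5%) and 5 lower (9.09%, beside 3.07%). Of the 2 members at 1 FPKM or more in that pair, only Ctsw was at least 2-fold higher. The vincristine derivative of that line had 7 of 51 list genes higher (13.7%, beside 5.79%) and 5 lower (9.8%, beside 4.51%). In the prednisone derivative of line 2641 12 of 58 were lower (20.7%, beside 4.84%) and 1 higher (1.72%, beside 2.29%). In the cytarabine derivative of line 7298 9 of 57 were lower (15.8%, beside 3.58%) and 2 higher (3.51%, beside 1.68%). These counts describe single pairs of libraries, and nothing particular to the lists is read from them.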

How the data were processed

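RNA of 16 cultures was sequenced with a stranded mRNA kit. The authors deposited 1 table of FPKM, 13474 genes long. Partek, STAR, cutadapt and mm10 are named, without versions, in the submitters' processing notes; how reads were counted, and on which annotation, is not given in the sources used here. As the deposited values show, the length behind each FPKM is its whole span with introns, and 0.1 read was added per gene. CPM was recovered as FPKM times that length, and reads from the smallest step. Of values between 0.5 and 200 reads, 70.5% to 75.7% per library came within 0.05 of a whole number, too few for a count test, as were 69 of the 80 member values of any size; reads are rounded here.

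The members and lists were chosen with earlier results of these data known. Members are described by ratios with exact (Clopper-Pearson) 95% intervals (scipy 1.17.1). A library at 0 reads was set to 3 for a fold, which leaves out the counting error of the other library. No fold is given where both had 3 or fewer. Other genes were tested with limma 3.58.1 (R 4.3.3) on log2(FPKM + 1), with line and drug terms over all 16 libraries, at an adjusted p of 0.05; p-values measure the spread between cultures. The line pairs the samples, as the labels name the same line: all 11 derivatives correlated best with their own parental library (r = 0.942 to 0.981). Named besides the members were, per list, the 4 genes of widest range and up to 4 called genes per comparison, for each member the 5 genes of highest r (predicted genes and receptor segments left out), and its nearest rows. Ctsc, the remaining called genes and Was are named outside that rule. For Nkg7, 1 of those 5 genes is not reported here. Promoters are from RefSeq (GRCm38.p6); gene positions are from GENCODE vM21 on mm10. Another pseudocount, filter, scaling, no line term and each library left out were tried.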

Additional observations from a re-analysis of the deposited data

Results flagged for a closer look

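In the parental group of 5 libraries, line 2696 lay far from the others in 3 genes: Gzmb at 1.63 FPKM, Nkg7 at 35.2 FPKM and Ctsw at 4.58 FPKM. They are listed because the gap to the nearest library took up most of the group's range. This is a description and no test: the genes were chosen with their levels known, and the 5 libraries are different lines and not replicates. How often such a gap would arise by chance was not computed.

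Ratios to the parental library pointed opposite ways between lines under the same drug, and these differences were not tested. For cytarabine, Gzma had ratios of 0.749 in line 2883, 1.87 in 2869 and 0.415 in 7298. Prf1 had 6.18, 0.569 and 0.204 in the same lines, and Ctsw 5.82, 5.23 and 0.424. Nkg7 was at least 2.12-fold higher in line 2883, on 9 reads against 0, and had a ratio of 0.0691 in line 7298.

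For vincristine, Gzma had ratios of 1.85 in line 2696, 2.41 in 2883 and 0.0544 in 2869. Ctsw had 0.780, 3.99 and 0.628 in those lines. For prednisone, Ctsw had 3.81 in line 2883 and 0.253 in line 2641.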

How the results depend on the processing

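The 0 of 68 pathway genes called in each of the 5 drug and resistance comparisons stayed at 0 under another pseudocount, no filter, other scalings, CPM, without the replicate block (line terms left out) and with each library left out (0 to 0). Over all genes, prednisone had 2 called, and 1 with no filter, 1 on log2(CPM + 1) and 0 without the replicate block; vincristine had 0, and 3 without the block. Leaving out each library gave 0 to 0 genes for cytarabine, 0 to 9 for vincristine, 0 to 5 for etoposide, 0 to 4 for prednisone and 0 to 2 for any resistance, and for line differences 1263 to 1900 of all genes and 13 to 22 of the list genes. The 9 came without parental line 2696, the 5 without its etoposide derivative, and the 1263 without parental line 2869. The cause of these shifts was not tested beyond the libraries named.

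Under median-of-ratios scaling all 37 member ratios kept their direction, and 36 stayed within their interval. The exception was Gzma in the prednisone derivative of line 2641, at 0.821. Depth limits Gzmb outside line 2696 and Prf1 in lines 2883 and 2641. It also limits Nkg7 in lines 2869, 2641 and 2883, and in the cytarabine derivative of line 7298. In many of these libraries 9 reads or fewer stand, though Nkg7 had 167 in the etoposide derivative of line 2883. With 1 library per culture, no ratio has a replicate check.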
